A study of Mus musculus with 12 samples.

Results

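Liver cells rich in mitochondrial transcripts were compared with liver cells poor in them, within each library. The cells were chosen by 2 measured values that the authors deposited for each cell. The first is the intronic fraction, the share of a cell's signal assigned to introns, which had to lie between 0.25 and 0.45 (the window). The second is the mitochondrial percent, the share of a cell's unique molecular identifiers (UMIs, each standing for 1 captured molecule) that fell on 13 adjacent features of the count table. Window cells with 15% or more were taken as mitochondria-rich and those with less than 5% as mitochondria-poor. Of the 31003 deposited cells, 12608 lay in the window, and 8249 of those were members: 4387 mitochondria-rich and 3862 mitochondria-poor cells. The 4359 window cells between the limits, the 15540 cells below the window and the 2855 above it were not members and serve below as other cells.

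Mitochondria carry a small genome of their own, whose transcripts are made inside the organelle and encode subunits of the respiratory chain and of ATP synthase. Hepatocytes, the main cells of the liver, are dense in mitochondria, which burn fatty acids and host steps of the urea cycle and of gluconeogenesis. In single-cell libraries the mitochondrial share of transcripts is read both as a sign of mitochondrial content and as a common measure of cell quality, and the intronic share reflects unspliced RNA, most of it nuclear.

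The cells came from livers of wild-type 129S6/SvEv mice, female or male, taken at zeitgeber time (hours after lights on) 10 or 22, written ZT10 and ZT22. Each of the 4 groups had 3 libraries, and all 12 entered the comparison. Cells freed by collagenase perfusion were spun to enrich hepatocytes and kept frozen until they were thawed and captured on the 10x Genomics Chromium v3 system. The ages of the mice, and whether each library came from a separate animal, are not given in the sources used here, so p-values measure the spread between libraries. The count table identifies its features by number, without gene names paired to them in the files, so neither hepatocyte nor other cell type markers could be checked and features are given by number.

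The series held 100273202 UMIs, with library totals from 2284202 to 14654630. Among the members, 9 cell barcodes occurred in more than 1 library. Male ZT22 replicate 2 stood apart: the median intronic fraction of all its cells was 0.510, against 0.211 to 0.319 in the other 11 libraries. Results that rest on it are given with and without it. The cell names of a library start with a number that some libraries share, and the files do not say what it marks. There were 6 such numbers, 4 of them with libraries of both sexes and 0 with both times, so this number and the time of day cannot be told apart.

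The share of window cells on each side varied widely between libraries. Mitochondria-rich cells made up from 6.50% of the window cells (female ZT10 replicate 1; exact 95% binomial interval 5.42% to 7.71%) to 63.1% (male ZT22 replicate 2; 59.6% to 66.5%). Mitochondria-poor cells ranged from 7.85% (male ZT22 replicate 2) to 47.9% (female ZT10 replicate 1). These intervals cover counting error only. Replicates of the same group lay far apart: the mitochondria-rich share was 29.1% ± 24.2 (mean ± SD, n = 3) in female ZT10, 40.8% ± 10.8 in female ZT22, 39.8% ± 11.5 in male ZT10 and 43.2% ± 17.2 in male ZT22. Over the 6 libraries of each sex, the mitochondria-rich share came to 34.9% ± 17.9 for females and 41.5% ± 13.2 for males. This difference of -6.53 percentage points did not pass an exact two-sided permutation test over 924 assignments of libraries (p = 0.478, adjusted over the 4 share tests 0.638). The mitochondria-rich share at ZT22 exceeded that at ZT10 by 7.56 points (exact permutation p = 0.431, adjusted 0.638). The mitochondria-poor share was 8.52 points higher in females (exact permutation p = 0.262, adjusted 0.638) and differed by 1.59 points between the times (exact permutation p = 0.835, adjusted 0.835). Without male ZT22 replicate 2, the mitochondria-rich share differed by -2.22 points (female minus male) and 3.34 points (ZT22 minus ZT10). The mitochondria-poor share then differed by 5.18 and 5.94 points in the same order (exact permutation test, adjusted p = 0.792 for each of the 4). Within the 4 cell name numbers that held both sexes, the female minus male difference in the mitochondria-rich share was -12.7, 13.1, -0.816 and -0.764 points, and in the mitochondria-poor share 17.6, -4.28, 1.10 and 3.37 points. No effect of sex or time on the number of such cells was detectable against a spread of this size.

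**Figure D1:**
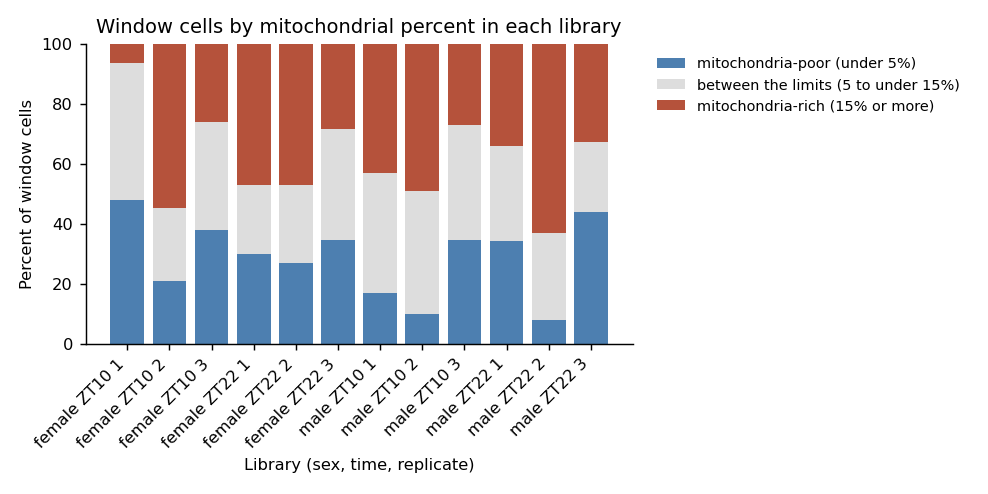
Bars show, for each of the 12 libraries, the percent of window cells that were mitochondria-poor, between the limits, and mitochondria-rich. The mitochondria-rich part runs from 6.50% in female ZT10 replicate 1 to 63.1% in male ZT22 replicate 2, with no order by sex or time.

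What the choice of cells fixed is given here as description, with no test. Over the 12 libraries, the median mitochondrial percent was 21.3 ± 2.97 on the rich side and 2.59 ± 0.56 on the poor side (mean ± SD of library medians). The median cell had 751 ± 181 mitochondrial UMIs against 66.8 ± 28.9, a ratio between 5.06 and 19.8 within libraries. Its UMIs on all other features differed much less, 2763 ± 611 against 2582 ± 916, and were higher on the rich side in 8 of 12 libraries. The sides thus differed far more in mitochondrial UMIs than in other UMIs. The median intronic fraction was 0.305 ± 0.0220 on the rich and 0.330 ± 0.0185 on the poor side. It was lower on the rich side in every library but male ZT22 replicate 2, where it was 0.3506 on the rich and 0.3075 on the poor side. This direction holds for the fraction as deposited, whose denominator is not stated. Medians over the non-mitochondrial share were not compared. At the limits the sides met smoothly. The 620 window cells with 4% to under 5% and the 515 with 5% to under 6% had 2500.5 and 2638 other UMIs in the median cell. The 400 cells with 14% to under 15% and the 386 with 15% to under 16% had 2784 and 2813. No member exceeded 39.99% mitochondrial UMIs, which is also the highest value in all window cells.

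The RNA that is not mitochondrial was more concentrated in a few features in the mitochondria-rich cells. The 100 most abundant features of the whole table, the 13 mitochondrial ones left out, held between 36.2% and 46.7% of the other UMIs on the rich side and between 29.7% and 38.7% on the poor side. The means were 40.7% ± 2.74 and 33.0% ± 2.21. The rich side was higher in 11 of 12 libraries, by 7.74 ± 4.16 percentage points (exact two-sided sign-flip permutation test, p = 0.000977, adjusted over both measures of this paragraph 0.000977). Fewer different features were seen per rich cell when every cell was thinned to 500 other UMIs, a number that all compared cells had. The mean was 337.4 ± 14.9 detected features per rich cell and 366.2 ± 7.87 per poor cell, lower by 28.8 ± 18.8 and lower in 11 of 12 libraries (exact two-sided sign-flip permutation test, p = 0.000977, adjusted 0.000977). Without thinning, the library medians were 1294 ± 223 and 1342 ± 327 detected features, with the rich side higher in 7 of 12 libraries. Averaged within each of the 6 cell name numbers, the 100 features held at least 4.39 points more on the rich side in all 6. The exception on both measures was male ZT22 replicate 2, where the 100 features held 38.3% on the rich and 38.7% on the poor side, and 347.2 and 345.1 features were detected at 500 UMIs. Without this library the rich minus poor difference was 8.47 ± 3.46 points for the 100 features and -31.6 ± 16.9 detected features. This exception depended on how the window was set. The denominator of the intronic fraction is not stated, and with the window set on the intronic fraction divided by the non-mitochondrial share, the 100 features held 10.1 ± 3.99 points more on the rich side and 39.1 ± 16.7 fewer features were detected, each in 12 of 12 libraries (exact two-sided sign-flip permutation test, p = 0.000488). In male ZT22 replicate 2 the 100 features then held 41.7% on the rich and 39.3% on the poor side, the smallest difference of the 12 libraries.

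**Figure D2:**
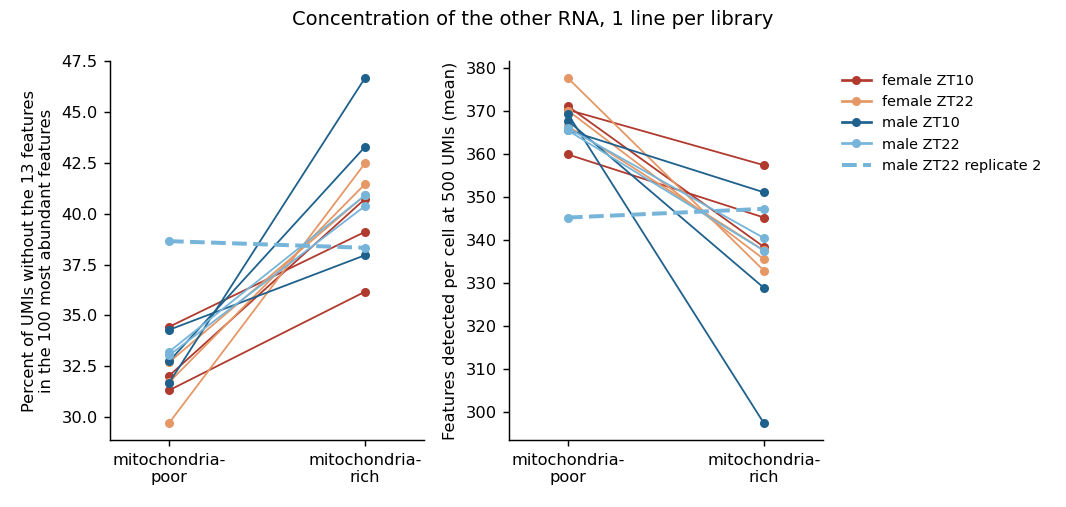
Each line joins the mitochondria-poor and mitochondria-rich cells of 1 library: at left the percent of UMIs (13 mitochondrial features left out) in the 100 most abundant features, at right the mean number of features detected per cell at 500 UMIs. In 11 libraries the left lines rise and the right lines fall, and the dashed line of male ZT22 replicate 2 is nearly level in both panels.

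A large part of the transcriptome differed between the sides. UMIs were summed per library and side, and the sums were compared with edgeR's quasi-likelihood test with library as a block, after the 13 mitochondrial features had been left out. Of 7146 features with enough counts, 2863 had a Benjamini-Hochberg adjusted p under 0.05, or 40.1%. Of these, 1177 (16.5% of those tested) were higher and 1686 (23.6%) lower in the mitochondria-rich cells. Most differences were modest. The median log2 fold change was 0.55 among the features called higher and -0.56 among those called lower, and 186 rose and 105 fell at least 2-fold. The direction was the same in all 12 libraries for 325 features called higher and 392 called lower, and 10.0% of all tested features went 1 way in every library. With DESeq2, 1242 features were called higher and 1282 lower. The balance of directions depends on the scaling. With total counts only, 715 were called higher and 2982 lower, and the median log2 fold change of all tested features moved from -0.05 to -0.23.

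Some of the members belonged to clusters that stood apart from the main cell population, and these moved with the comparison. When all deposited cells were clustered without the mitochondrial features, 26646 cells (85.9%) formed the main population and 4357 fell into clusters set apart by strongly raised features, which stay unnamed because no gene names are paired. Of the mitochondria-poor cells, 490 of 3862 (12.7%) lay in the clusters set apart, and of the mitochondria-rich cells 194 of 4387 (4.42%). Per library the share ranged from 2% to 33.3% on the poor and from 0% to 18.0% on the rich side. The comparison was therefore repeated in the main population alone, in the 11 libraries that still had 20 cells on both sides; male ZT10 replicate 2 dropped out.

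Most of the difference was still there in the main population. Of 6983 features tested, 2509 (35.9%) passed edgeR's adjusted p under 0.05, with 1130 (16.2%) higher and 1379 (19.7%) lower in the mitochondria-rich cells. Of the 1177 features called higher in all window cells, 1164 could be tested in the main population, all of these kept their sign, and 987 were called. Of the 1686 called lower, 1586 could be tested, 1251 were called lower again and 5 were called higher. The strongest falls were the part that did not carry over. Of the 105 features that fell at least 2-fold in all window cells, 61 did not pass the count filter in the main population. Only 36 features fell at least 2-fold there, against 178 that rose at least 2-fold. Concentration differed as before: the 100 most abundant features held 6.45 ± 3.53 points more of the other UMIs in the rich cells, and 23.5 ± 13.4 fewer features were detected at 500 UMIs, each in 10 of 11 libraries (exact two-sided sign-flip permutation test, p = 0.00195 for each).

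**Figure D3:**
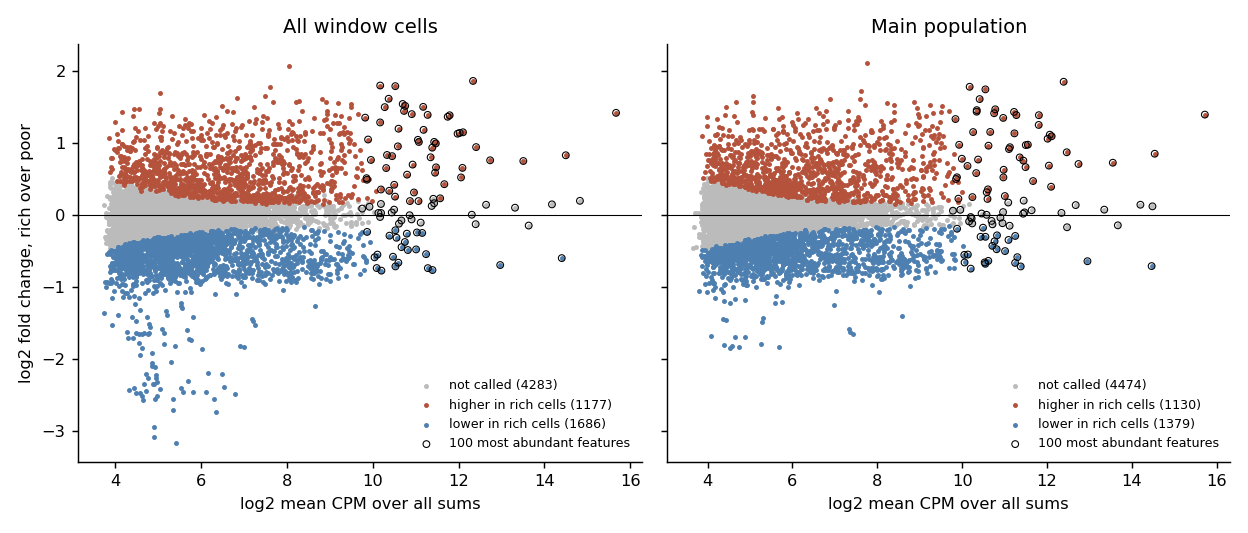
Each point is a feature, with its log2 mean normalised count (CPM) on the x axis and its log2 fold change, mitochondria-rich over mitochondria-poor, on the y axis, for all window cells (left) and the main population (right). Features called higher (1177 and 1130) are red, those called lower (1686 and 1379) blue, and circles mark the 100 most abundant; the cloud of strong falls at left is mostly missing at right.

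Feature 10277 had the largest rise among the features that moved the same way in every library and reached 50 CPM (counts per 1e6 UMIs, TMM-scaled, mitochondrial features left out). Its level in the mitochondria-rich cells ranged from 148 to 1717 CPM with a median of 396, and in the poor cells from 42.7 to 278 CPM with a median of 84.3. The ranges of the sides overlapped because libraries differed in level, but within each of the 12 libraries the rich cells were higher. The log2 fold change of feature 10277 was 2.07 ± 0.12 (± SE here and below; edgeR adjusted p = 8.08e-12), and 2.11 ± 0.13 in the main population (edgeR adjusted p = 8.29e-13). Male ZT10 replicate 2 had its highest level on both sides.

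Feature 447 was next. It ranged from 1357 to 2154 CPM (median 1778) in the rich cells and from 253 to 1984 CPM (median 464) in the poor cells. For feature 447 the log2 fold change was 1.80 ± 0.14 (edgeR adjusted p = 2.36e-10), and 1.78 ± 0.14 in the main population. The sides overlapped through 1 library: the poor cells of male ZT22 replicate 2 had 1984 CPM, while the poor cells of the other 11 libraries did not exceed 702 CPM. In that library the rich cells had 2154 CPM.

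The largest falls in all window cells under the same rule were those of features 3639 and 7641. Feature 3639 ranged from 1.44 to 18.8 CPM (median 8.18) in the rich and from 7.79 to 244 CPM (median 92.0) in the poor cells, a log2 fold change of -3.17 ± 0.29 (edgeR adjusted p = 1.16e-09). Feature 7641 ranged from 0 to 32.1 CPM (median 4.99) against 6.43 to 117 CPM (median 68.5), a log2 fold change of -2.95 ± 0.26 (edgeR adjusted p = 5.70e-10). Both sat almost wholly in the clusters set apart. Of the UMIs of feature 3639 in mitochondria-poor cells, 97.7% came from those clusters, where its level was 630 CPM (unscaled) against 1.65 CPM in the main population, and for feature 7641 the share was 95.7%. Neither had enough counts to be tested in the main population. The clusters were built from these features among others, so these shares are a description.

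Within the main population the largest falls under the same rule were those of features 10727 and 10508. Feature 10727 ranged from 3.73 to 36.7 CPM (median 18.0) in the rich and from 9.55 to 152 CPM (median 58.4) in the poor cells, a log2 fold change of -1.80 ± 0.13 (edgeR adjusted p = 8.57e-12). Feature 10508 ranged from 45.8 to 180 CPM (median 69.0) against 66.9 to 592 CPM (median 204), a log2 fold change of -1.58 ± 0.11 (edgeR adjusted p = 8.57e-12). Both were lower in the rich cells of all 11 libraries, which the rule for choosing them asked for. For feature 10508 the difference in male ZT22 replicate 2 was small, 61.0 against 66.9 CPM. In all window cells their log2 fold changes were -1.64 ± 0.13 and -1.45 ± 0.12.

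**Figure D4:**
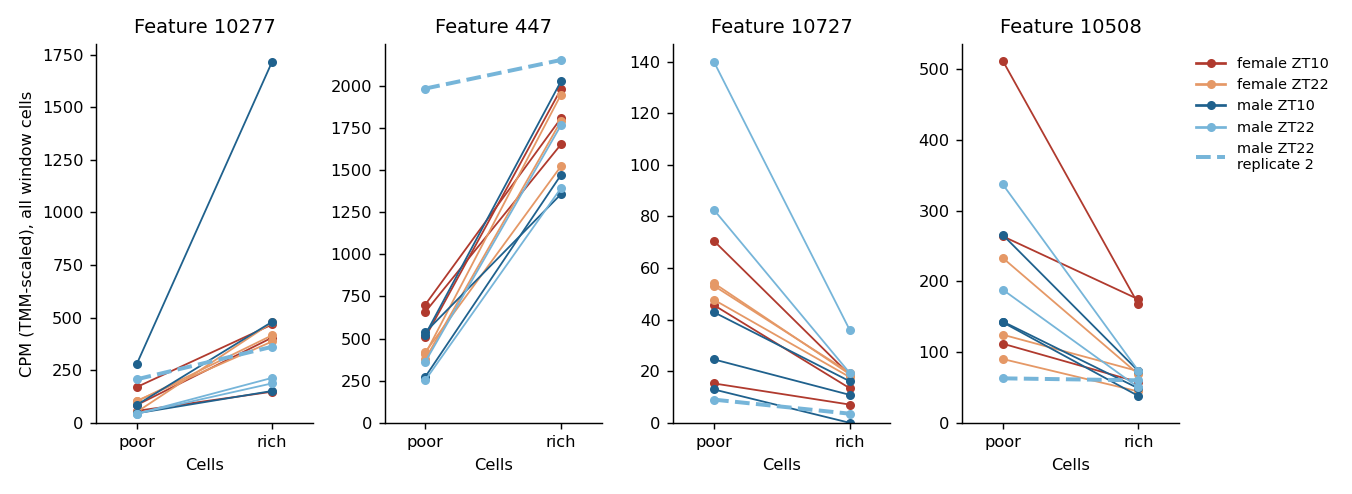
Each line joins the level of a feature in the mitochondria-poor and mitochondria-rich cells of 1 library (CPM, TMM-scaled, all window cells, linear axis from 0). Features 10277 and 447 are higher and features 10727 and 10508 lower in the rich cells of every library. The rule for choosing them asked for 1 direction in every library of the main population. The dashed line of male ZT22 replicate 2 starts at 1984 CPM for feature 447.

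Abundant features made up more of the rise than of the fall. Of the 100 most abundant features, 54 were called higher and 23 lower in the mitochondria-rich cells, with a median log2 fold change of 0.28 against -0.05 over all tested features. The main population gave counts of 51 and 23, with a median of 0.22 against -0.01. With total counts only they were 47 and 33, with a median of 0.10 against -0.23. In the most abundant quintile of the tested features, 530 of 1429 were called higher and 406 lower. In the least abundant quintile, 78 of 1430 were called higher and 262 lower, with 23.8% called in either direction against 65.5% in the most abundant. In the main population the most abundant quintile had 444 of 1397 called higher and 408 lower, a more even split. Its least abundant quintile had 94 called higher and 186 lower. Fewer changes can be detected at low counts.

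The difference followed the mitochondrial percent in steps, and most of it lay below 15%. The features called higher held 28.0% ± 3.78 of the other UMIs in window cells under 5%, 36.8% ± 2.88 at 5% to 10%, 41.8% ± 2.21 at 10% to 15%, 44.2% ± 2.76 at 15% to 20% and 44.3% ± 3.03 at 20% to 30% (12 libraries each). The features called lower held 28.7% ± 4.36, 21.6% ± 2.70, 18.3% ± 1.13, 17.1% ± 1.14 and 17.1% ± 0.953 in the same order. These features were chosen on the cells under 5% and from 15%, so only the cells from 5% to 15% are independent of the choice. Their shares lay between those of the chosen sides. Over the first 4 bins the features called higher rose without a break in all libraries but male ZT22 replicate 2, and those called lower fell without a break in all but female ZT10 replicate 1, so both held in 10 of 12 libraries. In female ZT10 replicate 1 the features called lower held 26.8% under 5% and then 18.5%, 18.7% and 18.9%. The 100 most abundant features, which were not chosen by this comparison, rose from 33.0% ± 2.21 through 36.2% ± 1.57 and 38.7% ± 1.57 to 40.3% ± 2.06 over the same bins, again without a break in 11 of 12 libraries, and held 40.6% ± 2.51 at 20% to 30%. Of single features, 447 and 10277 rose without a break over these 4 bins in 11 and 8 of 12 libraries. Features 10508 and 10727 fell without a break in only 5 and 6 of 12. Feature 10508 fell from 210 ± 127 CPM (unscaled) under 5% to 78.7 ± 41.1 at 15% to 20%, and feature 10727 from 50.8 ± 36.5 to 14.2 ± 9.30. Feature 447 rose from 599 ± 468 CPM (unscaled) under 5% to 1497 ± 271 at 15% to 20%. In the 6 libraries with 20 or more cells at 30% to 40%, it was at 1494 ± 374 CPM at 15% to 20% and 1878 ± 448 in that last bin. Feature 10277 rose from 109 ± 78.7 to 391 ± 292 CPM at 15% to 20%. In the 6 libraries with the last bin, which do not include male ZT10 replicate 2 with its high level, it was at 347 ± 162 CPM at 15% to 20% and 296 ± 155 at 30% to 40%.

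**Figure D5:**
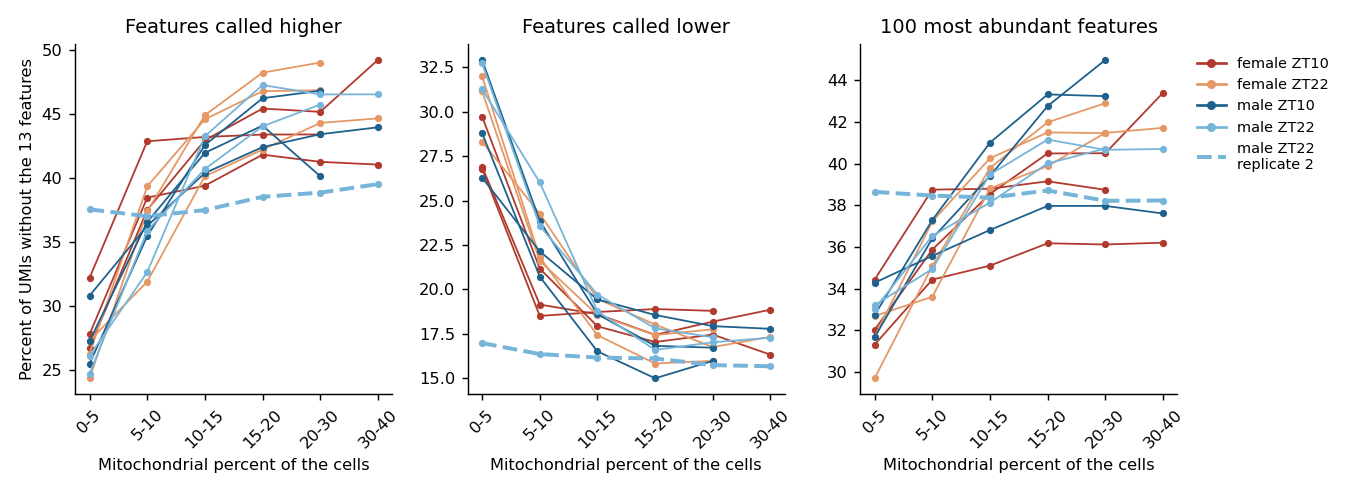
Lines show, for each library, the percent of UMIs (13 mitochondrial features left out) held by the features called higher, the features called lower and the 100 most abundant features, in window cells binned by mitochondrial percent. Most lines climb or fall steeply up to 15% and then flatten; those of female ZT10 replicate 1 are nearly level from 5% on, and the dashed line of male ZT22 replicate 2 runs from 37.6% to 39.5% at left.

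Cells that took no part in the comparison were examined next; they came from the same libraries. Window cells with 10% to under 15% were compared with those from 5% to under 10%, in all 12 libraries. Of 5078 features tested with edgeR, 461 (9.08%) were called, 239 (4.71%) higher and 222 (4.37%) lower. Of the 2863 features called between the rich and poor cells, 2263 could be tested here and 1996 (88.2%) had the same sign, against 58.8% of the 2815 features tested in both but not called. All 454 that were called in both had the same sign. Under the rule of 50 CPM and the same direction in every library, features 3984 and 7003 had the largest rises. Feature 3984 had 61.5 ± 10.0 against 36.1 ± 13.1 CPM, a log2 fold change of 0.71 ± 0.13 (edgeR adjusted p = 2.74e-05). Feature 7003 had 1747 ± 776 against 1212 ± 496 CPM, a log2 fold change of 0.52 ± 0.07 (edgeR adjusted p = 2.74e-08). Both were also higher in the rich than in the poor cells, with log2 fold changes of 1.33 ± 0.13 and 1.79 ± 0.15.

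The largest falls between these middle cells under the same rule were those of features 8045 and 12191. Feature 7641 fell by more than feature 12191 (log2 fold change -1.11), but not in every library. Feature 12191 had 318 ± 381 against 465 ± 510 CPM, a log2 fold change of -0.57 ± 0.07 (edgeR adjusted p = 3.53e-08), and in the main population it was lower in the rich than in the poor cells by a log2 fold change of -1.40 ± 0.08. Feature 8045 fell by 1.25 ± 0.13 on the log2 scale (89.0 ± 56.9 against 228 ± 136 CPM, edgeR adjusted p = 1.64e-11). Its direction between rich and poor cells differed between all window cells and the main population. The log2 fold change of feature 8045 was -1.81 ± 0.23 over all window cells and 0.64 ± 0.21 in the main population (edgeR adjusted p = 0.0175). In the main population its level was low, 21.4 ± 10.9 against 17.7 ± 17.5 CPM, and higher in the rich cells of only 7 of 11 libraries. Of its UMIs in the poor cells, 92.4% lay in the clusters set apart. The clusters were built from the same counts, so this share is a description.

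The same limits were applied to cells below the window, whose RNA was less intronic. In 11 libraries, 8156 features were tested with edgeR between cells from 15% and cells under 5%, and 4257 (52.2%) were called, 2053 (25.2%) higher and 2204 (27%) lower. Of the 2863 features called in the window, 2839 could be tested and 2747 (96.8%) had the same sign, against 68.4% of 4221 not called in the window. Of those, 2431 were called in both comparisons in the same direction and 10 in opposite directions. Of the 2509 features called in the main population of the window, 2470 could be tested in main-population cells below it. There 2388 (96.7%) had the same sign, against 67.7% of 4296 not called. The largest rises here under the same rule were those of features 12431 and 6599. Feature 12431 had 58.2 ± 12.6 against 7.48 ± 3.94 CPM, a log2 fold change of 2.82 ± 0.17 (edgeR adjusted p = 2.00e-11). Feature 6599 had 72.5 ± 30.4 against 13.6 ± 7.52 CPM, a log2 fold change of 2.44 ± 0.15 (edgeR adjusted p = 2.73e-11). Both were higher in the rich window cells too, by log2 fold changes of 1.29 ± 0.18 and 1.25 ± 0.16. The largest falls under this rule were those of feature 2550 (log2 fold change -4.44 ± 0.27, edgeR adjusted p = 2.27e-11) and feature 11591 (-4.40 ± 0.25, edgeR adjusted p = 1.52e-11). They had 97.2% and 95.1% of their UMIs in mitochondria-poor window cells in the clusters set apart. Neither passed the count filter in the window. Above the window only 5 libraries had 20 cells on both sides, and no test was run.

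The libraries resembled each other in this comparison, with 1 exception. For each library in turn, the features called by the other 11 were looked up in it. In 11 libraries, 80.3% to 93.9% of these features differed between rich and poor cells in the same direction. In male ZT22 replicate 2 only 1617 of 2873 (56.3%) did, and the median log2 ratio in it was 0.08 for features called higher and -0.08 for features called lower. Among main-population cells the share was 55.0% there and 81.6% to 95.3% in the other 10 libraries. This library had 61 mitochondria-poor window cells and 109914 UMIs on that side, the fewest UMIs of any side. It had many more cells above the window, 651 rich and 540 poor, and there 52.0% of the features had the same direction, counted from the median of all features. In the 4 other libraries with 20 such cells on both sides the share was 61.2% to 67.1%, from 20 to 37 rich cells each. With the window set on the fraction divided by the non-mitochondrial share, 52.6% of the features had the same direction in male ZT22 replicate 2 and 79.7% to 93.6% in the other 11, counted likewise. In its poor window cells the features called higher held 37.6% of the other UMIs, against 24.3% to 32.2% in the poor cells of the other 11 libraries. The high intronic fraction and the missing difference occur in the same library, and their relation was not tested. Without this library, edgeR called 2919 features.

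Whether the difference depended on sex or time was tested with an interaction term in the same edgeR fit. For time, 0 of 7146 features passed an adjusted p under 0.05, or 0%, with 389 at an unadjusted p under 0.05, and DESeq2 also called 0. For sex, 3 features passed, or 0.042%, 2 of them (0.028%) with a higher and 1 (0.014%) with a lower value in females, with 384 at an unadjusted p under 0.05, and DESeq2 called 2. In the main population edgeR called 0 of 6983 for sex, with 291 at an unadjusted p under 0.05. These counts at an unadjusted p under 0.05 are near the share that this threshold gives with no dependence at all.

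The 3 features that passed for sex had different patterns. Feature 7049 had 55.3 ± 16.5 CPM in the rich and 33.5 ± 9.32 CPM in the poor cells of females (n = 6), and 52.2 ± 11.0 against 65.4 ± 11.1 CPM in males. It was higher in the rich cells of all 6 female libraries and lower in those of all 6 male libraries, an interaction of 1.01 ± 0.20 on the log2 scale (edgeR adjusted p = 0.0481), which passed in only 2 of 19 alternatives. Feature 2583 was more abundant in females on both sides, and differed between the sides mainly in males: 426 ± 242 against 386 ± 242 CPM in females and 75.5 ± 30.1 against 139 ± 75.2 CPM in males, an interaction of 0.93 ± 0.17 (edgeR adjusted p = 0.0355), which passed in 6 of 20 alternatives. Feature 10783 was measured mainly in males, with 223 ± 43.7 CPM in rich and 199 ± 49.1 CPM in poor male cells. In females it had 14 UMIs in 1855 rich cells and 57 UMIs in 2236 poor cells, and its interaction of -2.86 ± 0.41 (edgeR adjusted p = 0.00122) rests on these few counts and passed in 17 of 19 alternatives. Within the 4 cell name numbers with both sexes, the female minus male difference in the log2 ratio of the sides was 0.57 to 1.25 for feature 7049, 0.64 to 1.09 for feature 2583 and -1.87 or lower for feature 10783.

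The make-up of the mitochondrial RNA itself differed slightly between the sides. The choice of cells used the sum of the 13 mitochondrial features, not the share of each within it. Of the 13 shares, 3 differed by an exact two-sided sign-flip permutation test over 12 libraries with p-values adjusted over the 13, and all 3 were lower in the mitochondria-rich cells. Feature 13723 held 17.7% ± 1.00 of the mitochondrial UMIs in the rich and 19.1% ± 1.17 in the poor cells, lower by 1.47 ± 0.51 points and lower in 12 of 12 libraries (exact p = 0.000488, the smallest this test can give, adjusted 0.00317). Feature 13721 held 0.581% ± 0.142 against 0.755% ± 0.219, lower in 10 of 12 libraries (exact p = 0.00244, adjusted 0.0106). The other one held 0.132% ± 0.0298 against 0.206% ± 0.0536, lower in 12 of 12 libraries (exact p = 0.000488, adjusted 0.00317). In the main population 3 of the 13 passed, 1 higher and 2 lower. The last of these features lost its call there, with 0.136% against 0.182% and an adjusted exact p of 0.0838, while features 13723 and 13721 kept theirs. Without male ZT22 replicate 2 the number of shares that passed was 7, of which 3 were higher and 4 lower.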

How the data were processed

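The authors deposited 1 table of raw UMI counts (18326 features by 31003 cells) and 1 metadata line per cell with, per the file headers, its intronic share as a fraction (denominator not stated) and its mitochondrial and caspase UMIs as a percent. Cell Ranger 6.1.2, Seurat and build mm10 are named in the submitters' processing notes. Cell filters, merging and annotation are not given in the sources used here. Column sums, detected features and the mitochondrial percent matched the counts in all 31003 cells. No column of another sample was present.

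UMIs were summed per library and side over libraries with at least 20 cells on each, which gave 109914 to 3052883 UMIs per sum without the 13 mitochondrial features. They were compared in edgeR 4.0.16 (quasi-likelihood test, TMM, filterByExpr by side, library as block, Benjamini-Hochberg threshold 0.05), with DESeq2 1.42.0 as an alternative. The procedures were tested on simulated data. Clustering used scanpy 1.11.5 and Leiden at resolution 0.3 on 2000 variable features; clusters were set apart where their 10 leading features had a median fold over all other cells above 8, a limit chosen after seeing the data. No doublets were called. Features given by number, at most 2 per direction and comparison, had the largest fold change among those called, at 50 CPM or more on the higher side and in 1 direction in every library (this last not asked of the sex and time terms). The cell limits, features and lists were chosen with earlier results of these data known. Marker and pathway lists need gene names and could not be run. Alternatives covered scaling, count filters, cell limits, thinning, the main population, blocks and leaving out libraries. The labels give no batch or date, and the number that starts the cell names was used as a possible batch.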

Additional observations from a re-analysis of the deposited data

Results flagged for a closer look

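In 3 features the difference between mitochondria-rich and mitochondria-poor cells depended on sex by a test of that difference. The interaction, female minus male, was 1.01 on the log2 scale for feature 7049, 0.93 for feature 2583 and -2.86 for feature 10783. In the main population the values for features 7049 and 2583 were 0.78 and 0.67 and did not pass edgeR's adjusted p under 0.05. Feature 10783 was not tested there, because too few of the sums had enough of its counts for the filter. Over both sexes its level in main-population cells was 115 CPM (unscaled) on the rich and 87.8 CPM on the poor side.

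The deposited caspase percent was used in none of the comparisons above. A caspase UMI was present in 25 of the 8249 compared cells, 0.303%. Of these, 23 were among the 4387 mitochondria-rich cells (0.524%) and 2 among the 3862 mitochondria-poor cells (0.0518%, under the 0.0777% that a count of 0 allows there). The share that free RNA would give was not measured, so these are counts of cells holding a caspase UMI and not of cells expressing the genes. Rich cells also had more UMIs in all, with a median of 3548 ± 807 against 2656 ± 960 over libraries. The difference between the sides was not tested.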

How the results depend on the processing

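Between rich and poor cells, 2560 to 2919 features were called when 1 library was left out, and 2245 to 2622 in the main population. Fewer were called with cells thinned to 500 UMIs (1016 of 2485 tested) and in the narrower window of 0.30 to 0.40 (1772 of 4522). The middle cells gave 139 of 947 tested when thinned and 302 of 4607 in the main population, with 338 to 567 on leaving out a library. The cells below the window gave 1819 of 2971 tested when thinned and 2634 of 7324 in the main population, with 3877 to 4340. Concentration ranged from 7.08 to 8.47 points and detected features from -31.6 to -24.9 on leaving out a library. They were 6.09 and -20.4 in the narrower window and 10.1 and -39.1 with the window over the non-mitochondrial share. With that last window edgeR called 3161 of 7524 features tested. Of these, 2418 were also called with the window on the deposited fraction, and 19 had the opposite sign there. Restricted to the main population, that last window gave 2950 of 7637. Of these, 2097 were also called over all cells of the window on the deposited fraction, and 90 had the opposite sign there. The sex dependence gave 1 feature with RLE scaling, with total counts only and when thinned, 0 in the main population and 96 without a filter on low counts, with 0 to 5 on leaving out a library: 0 without female ZT22 replicate 2 and 5 without male ZT22 replicate 1. The time dependence gave 13 without a filter and 0 to 3 on leaving out a library, 3 each without female ZT10 replicate 2 and without male ZT22 replicate 2. The 33 lost calls of single features all belonged to the 3 sex-dependent features: 17 to feature 7049, 14 to feature 2583 and 2 to feature 10783. RLE scaling, total counts only and the fit in which the difference could vary by replicate number each left only feature 10783. The mitochondrial shares gave 5 calls at 50 cells per side, 8 with the poor side under 3% and 7 in the narrower window, with 3 to 7 on leaving out a library and 5 without male ZT10 replicate 2. The mitochondria-poor share by time changed sign without a window (-3.29 points) and ranged from -2.01 to 5.94 on leaving out a library. The other shares ranged from -10.5 to -0.843 (rich, by sex), 1.97 to 11.6 (rich, by time) and 5.18 to 12.4 (poor, by sex). Fewer features were tested under thinning, in the narrower window and in the main population. The causes were not tested.

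The edgeR fits were also run with the difference between the sides allowed to vary by replicate number. Then 2822 features were called between rich and poor cells, 2333 in the main population, 468 in the middle cells and 4116 below the window. The sex dependence then gave 1 and the time dependence 0. Paired by number, the share tests gave exact permutation p = 0.469, 0.438, 0.25 and 0.75. Deviations of same-numbered female and male libraries had correlations of 0.41, 0.33 and 0.19 at ZT10 and of -0.02, -0.24 and -0.12 at ZT22. Between the times, within sex, same-numbered libraries had correlations from -0.51 to 0.22. These correlations were not tested, and the labels do not say what a number marks. Depth limits the poor side most, where 61 cells in male ZT22 replicate 2 and 27 in male ZT10 replicate 2 were compared.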
